A study of Mus musculus with 6 samples.

Results

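The potassium channel genes described here are those whose symbol begins with Kcn. On the mouse array used, 51 probe sets carried exactly 1 such symbol, and keeping the probe set with the highest mean signal per gene left 42 genes out of 8251 named genes. Mouse hippocampus total RNA was profiled on 6 arrays, 1 for each sample, in work on mice with extra HuD, an RNA-binding protein of neurons that the Elavl4 gene encodes. The labels give tissue and RNA type alone. Genotype, strain, age, the promoter of any transgene and any pooling of animals are not stated there, so no sample has a group and no genotypes were compared. Samples are called by the number in their titles. Sample 2 differs from the other samples in an unexplained title code.

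Potassium channels let potassium leave the cell and thereby set the resting potential, end the action potential and limit repetitive firing. Voltage-gated channels are built from pore subunits that may bind auxiliary subunits, calcium-activated channels couple internal calcium to repolarisation, inward rectifiers hold the membrane near rest and carry responses to G proteins or to ATP, and tandem-pore channels carry leak current. In hippocampal neurons these classes act at different places, such as axons, dendrites and terminals. The mRNA of Kcna1, a voltage-gated pore subunit of axons and dendrites, has been reported as bound by HuD.

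Kcnk1 varied most among the expressed channel genes, and Kcnma1 was among those lowest in sample 3, so their promoter windows are shown as reference for these 2 genes. Kcna1, also lowest in sample 3 and with a wider range than Kcnma1, had no promoter window listed. Both windows come from RefSeq (GRCm38.p6) and run 5′ to 3′ from 250 bases before to 50 bases after the annotated start. Capitals mark the GC box GGGCGG and the E box CANNTG, searched on both strands, and overlapping matches run together. The Kcnk1 window lies on the plus strand at chr8:125994852-125995151 and the Kcnma1 window on the minus strand at chr14:24004156-24004455.
Kcnk1: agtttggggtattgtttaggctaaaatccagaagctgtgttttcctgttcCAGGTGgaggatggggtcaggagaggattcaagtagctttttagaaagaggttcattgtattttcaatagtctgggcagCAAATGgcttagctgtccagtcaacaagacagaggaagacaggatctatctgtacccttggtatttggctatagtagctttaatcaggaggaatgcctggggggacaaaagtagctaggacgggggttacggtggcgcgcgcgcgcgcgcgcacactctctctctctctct
Kcnma1: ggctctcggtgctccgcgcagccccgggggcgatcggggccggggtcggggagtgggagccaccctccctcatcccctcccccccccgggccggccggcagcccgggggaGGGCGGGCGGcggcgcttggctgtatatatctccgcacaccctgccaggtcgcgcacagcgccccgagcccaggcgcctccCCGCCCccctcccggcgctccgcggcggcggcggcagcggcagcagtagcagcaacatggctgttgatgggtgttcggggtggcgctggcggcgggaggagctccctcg
The Kcnk1 window had a GC content of 49%, 10 CpG dinucleotides, 2 E boxes and 0 GC boxes. The Kcnma1 window had a GC content of 78%, 36 CpG dinucleotides, 0 E boxes and 3 GC boxes, of which 2 overlap. Neither held a TATAAA or TGACGTCA match. Among all 32851 promoter windows of this length, the medians were 52.7% GC and 7 CpG dinucleotides, and 35.7% held a GC box, 72.3% an E box, 13.6% TATAAA and 1.79% TGACGTCA. Of the 22 windows listed for 14 of the expressed channel genes, 12 held a GC box and 14 an E box. Such matches describe letters in these windows and say nothing of binding.

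Less than 1 in 2 of the channel genes gave a signal above the middle of the array. Genes are called expressed here where the median of their 6 values exceeded the array median, the median signal of all probe sets that are not controls. This held for 19 of the 42 genes (45.2%), against 58.6% of all named genes. Of these 19, 18 were above the array median in every sample, and Kcna3 was so in 3 samples. The 16 voltage-gated pore subunits gave 7 expressed genes, the 6 auxiliary subunits 3, the 4 calcium- or sodium-activated subunits 2, the 11 inward rectifiers 3 and the 5 tandem-pore subunits 4. All 42 matched the RefSeq gene table by identifier, with unchanged symbols.

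Most expressed channel genes differed little from sample to sample, and Kcnk1 and Kcna1 differed most. Each array was divided by its median before log2 was taken, and the highest minus the lowest of the 6 log2 values is called the range. The median range of the 19 genes was 0.46, beside 0.40 for all 4838 expressed genes. A range over 1, which is a highest sample above 2 times the lowest, was found for 2 of the 19 (Kcnk1 and Kcna1, 10.5%), against a background of 4.2% of expressed genes. Among genes with a median over 1 on this scale, it was 2 of 13 channel genes beside 2.14% of all such genes. With 2 genes behind either count, the shares are a description of these arrays. Since no sample has a labelled replicate, no test was made.

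**Figure D1:**
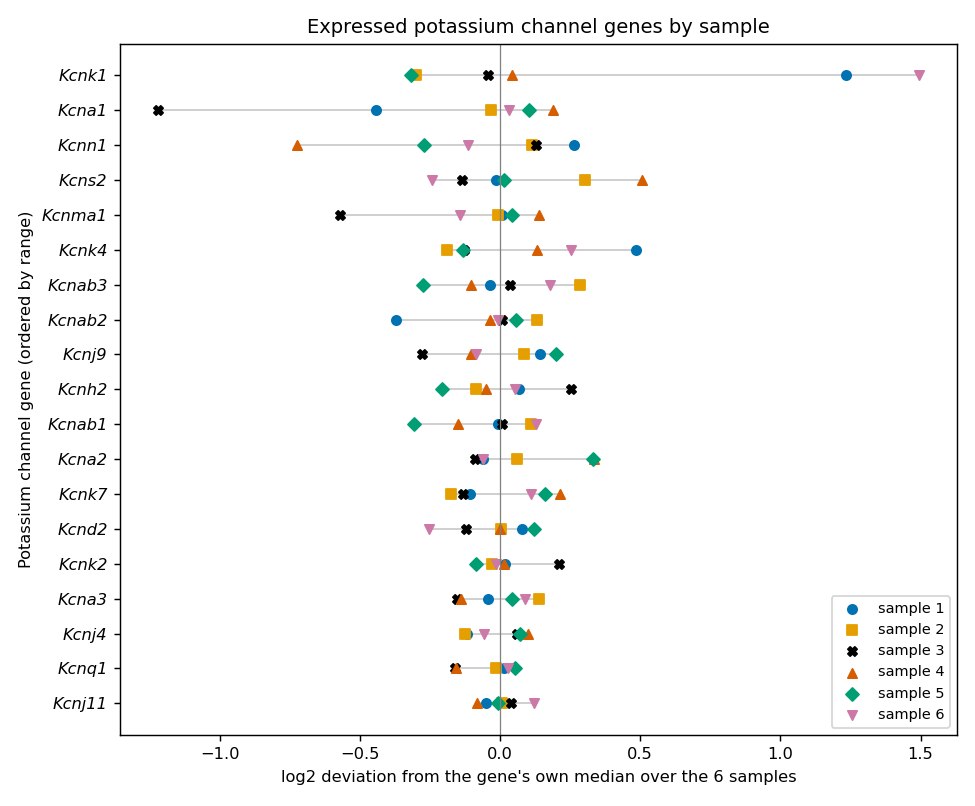
Log2 deviation of each expressed potassium channel gene (rows, ordered by range) from its own median over the 6 samples, with 1 symbol per sample and a grey line from lowest to highest. Samples 1 and 6 stand far to the right for Kcnk1, sample 3 far to the left for Kcna1 and Kcnma1, and sample 4 to the left for Kcnn1.

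The tandem-pore genes held the widest member of the family. Kcnk1, a weakly conducting leak subunit found in neurons and astrocytes, had signals of 721, 244, 284, 319, 247 and 865 in samples 1 to 6. Samples 1 and 6 were thus high and the other 4 lay close together. After scaling, the highest sample (6) was 3.51 times the lowest (5), a range of 1.81, while in deposited signals sample 2 was the lowest. The step between the 4th and the 5th sample in order of level was 2.28-fold, and such an inner or outer step of over 1 on the log2 scale was present in 0.682% of expressed genes. Of the 4838 expressed genes 36 had a larger range, and of the 3453 with a median over 1, 8 did. Kcnk1 had a single probe set, whose name marks no shared probes.

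Marker lists for the cells that hippocampal tissue can hold were read beside Kcnk1. Of the 5 endothelial markers measured, 2 were expressed. Cldn5, a tight junction protein, spanned 176 (sample 3) to 251 (sample 2), while Flt1, a receptor for vascular growth factors, spanned 53.2 (sample 3) to 97.5 (sample 1). The median deviation of the 2 expressed markers was 0.31, 0.03, -0.30, -0.16, 0.06 and 0.16 for samples 1 to 6. Of the 3 endothelial markers that were not expressed by the rule above, Pecam1, an adhesion protein, read 108 in sample 1 and 101 in sample 6 and 24.8 to 46.2 elsewhere. The other two did not share this order, Tek being highest in sample 4 (36.5) and Kdr in sample 3 (43.6). The meninges and fibroblast list (6 of 6 expressed) stood at 0.24 in sample 1 and 0.27 in sample 6, but also at 0.32 in sample 2, where Kcnk1 was low. The astrocyte list (6 of 6 expressed) stood at -0.16 in sample 1 and -0.02 in sample 6. The choroid plexus list (2 of 5 expressed) stood at -2.92 in sample 1 and 1.72 in sample 6, the 2 samples with high Kcnk1. Ttr, its brightest marker, had signals of 20.5 in sample 1 and 1798 in sample 6. Of the markers on the same list that were not expressed, Aqp1 read 34.4 and 14.1 there, Kl 45.8 and 146, and Cldn2 10.3 and 12.4. The part of other cells in the Kcnk1 values was not tested.

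The other tandem-pore genes moved less. Kcnk4, a mechanosensitive leak channel of neurons, had signals of 162, 98.9, 101, 127, 106 and 138 in samples 1 to 6, highest in sample 1 and lowest in sample 2, a range of 1.60-fold. Kcnk2, a related channel gated by stretch and lipids, lay between 381 and 445 with a median of 404 and ranged 1.23-fold. Kcnk7, which does not form a working channel by itself, lay between 77.2 and 104 with a median of 89.7. Samples 1, 4 and 6 were thus above the median for Kcnk4 as for Kcnk1. For Kcnk1, however, sample 4 (319) was only a little above its median of 301, far from samples 1 and 6. Kcnk2 was close to its median in samples 1 and 6, and Kcnk7 was under its median in sample 1 (82.9) and above it in sample 6 (96.4). Kcnk3, an acid-sensitive leak channel, lay between 1.99 and 4.77, under the floor of 0.2 of the array median in every sample.

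Among voltage-gated pore subunits, the 3 expressed Kcna genes were all lowest in sample 3, though only narrowly so for Kcna2 and Kcna3. Kcna1, whose product limits firing at axons and terminals, gave signals of 429, 557, 239, 670.2, 629.6 and 598 in samples 1 to 6. Sample 3 was the low value, sample 1 the next, and the other 4 lay at 557 or above. The range was 1.41 on the log2 scale (2.65-fold), and 66 of the 4838 expressed genes had a larger one. Without sample 3 the range of Kcna1 fell to 0.63, so this sample decides its place above 1. Kcna2, which shares channels with Kcna1 in myelinated axons, had 110.2, 117, 103, 146, 145 and 110.3 in samples 1 to 6. Its lowest sample was also 3 and its highest 4, over a range of 1.34-fold. Kcna3, known best from lymphocytes and microglia, was at the array median, between 54.4 in sample 3 and 68.3 in sample 2.

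In sample 3 the 3' to 5' signal ratio of the pyruvate carboxylase control was 3.56, the highest of the 6, with 2.35, 1.57, 1.97, 1.62 and 2.61 in samples 1, 2, 4, 5 and 6. The transferrin receptor ratio was also highest in sample 3 (3.47, beside 2.54 to 3.02 elsewhere), while the beta-actin and Gapdh ratios were highest in sample 1 (1.27 and 0.86). These ratios compare signal near either end of an mRNA and serve as a sign of RNA integrity or labelling. Camk2a, the kinase subunit of excitatory neurons, was likewise lowest in sample 3 (275) and next lowest in sample 1 (412), with 579 to 1016 elsewhere. The rest of its list was mixed. Wfs1 was also lowest in sample 3 (332), while Neurod6, Neurod2 and Calb1, other markers of hippocampal neurons, were highest there after scaling. Lct was lowest after scaling in sample 2 and Nrgn in sample 1. The median deviation of the 7 expressed markers in sample 3 was 0.05. The part of RNA quality in the Kcna1 values was not tested.

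**Figure D2:**
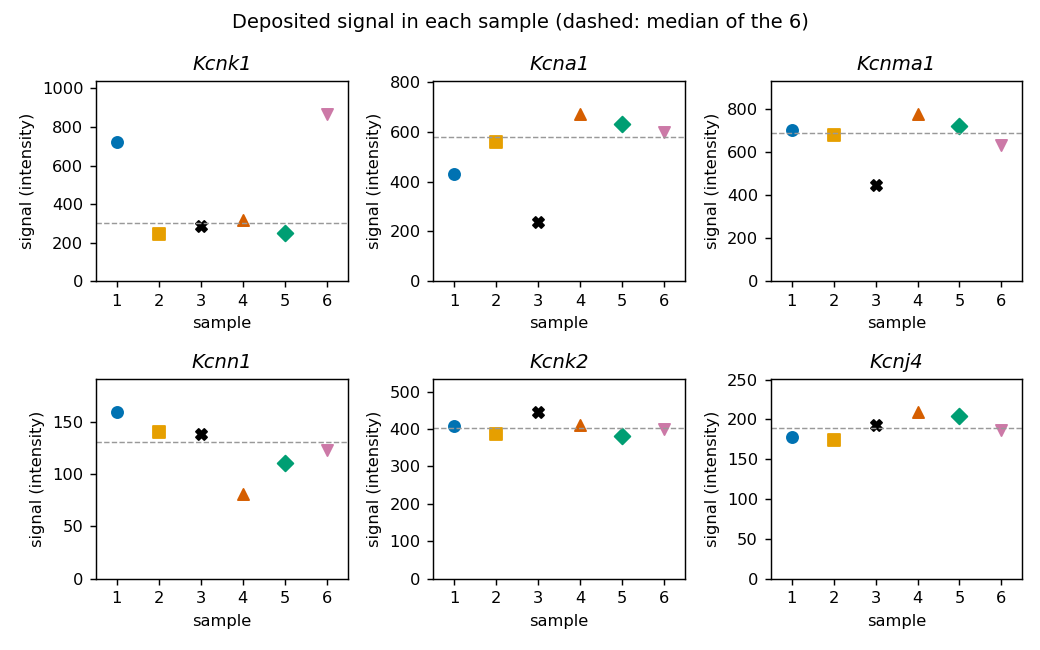
Deposited signal intensity (vertical axis, from 0) in samples 1 to 6 (horizontal axis) for 6 expressed genes, with the median of the 6 samples dashed. Kcnk1 is at 721 and 865 in samples 1 and 6 and at most 319 elsewhere, Kcna1 and Kcnma1 are lowest in sample 3 (239 and 447), Kcnn1 is lowest in sample 4 (80.8), and Kcnk2 and Kcnj4 change little.

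The remaining expressed voltage-gated genes varied over less than 2-fold. Kcns2, a silent subunit that modifies other channels, had signals of 77.6, 94.4, 67.9, 112, 79.4 and 66.2 in samples 1 to 6, a range of 1.68-fold with sample 4 highest. Kcnd2, the pore of the transient current in pyramidal cell dendrites, had 265, 246, 220.5, 253, 275 and 211 by a probe set marked as less specific, a range of 1.30-fold. Sample 6 was lowest and sample 5 highest for it. Kcnh2, a channel best known for cardiac repolarisation and also present in neurons, had 183, 161, 198, 169.7, 152 and 181, a range of 1.38-fold. It was thus highest in the sample where Kcna1 was lowest. Kcnq1, the slow delayed rectifier of heart and inner ear, was read by a probe set with a name that marks less specific probes, between 132 and 162. Its other probe set lay between 10.2 and 18.4, under the array median in every sample, so the call of Kcnq1 as expressed rests on the marked probe set.

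All 3 Kcnab genes, which encode cytoplasmic beta subunits of Kcna channels, were expressed and did not share 1 order of samples. Kcnab2 gave signals of 1039, 1437, 1287, 1319.9, 1403 and 1337.5 in samples 1 to 6. Sample 1 was low and the other 5 close, and the range of 1.42-fold fell from 0.50 to 0.17 on the log2 scale without sample 1. Kcnab1, whose product speeds inactivation, had 263, 278, 253, 239.9, 214 and 289, lowest in sample 5 and highest in sample 6. Kcnab3 had 109, 133, 109, 105, 92.6 and 126, a range of 1.47-fold, again lowest in sample 5. None of the 3 was lowest in sample 3, where their pore partners Kcna1 and Kcna2 were.

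Both expressed calcium-activated genes had ranges above the median gene. Kcnma1, the large-conductance channel that shapes spikes and transmitter release, gave signals of 699, 677, 447, 773, 721 and 631 in samples 1 to 6. Sample 3 was low, and the range of 0.71 on the log2 scale (1.64-fold) became 0.28 without it. Kcnn1, a small-conductance channel of the family that carries afterhyperpolarisation, had 159, 140.2, 138, 80.8, 110.3 and 123 in samples 1 to 6. Sample 4 was low and sample 1 high, a range of 0.99 (1.99-fold) just under the threshold, which became 0.54 without sample 4. Kcnma1 was thus highest, and Kcnn1 lowest, in sample 4. With quantile normalization Kcnn1 passed the threshold as well.

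The expressed inward rectifiers were the steadiest class, with a median range of 0.22. Kcnj11, the pore of the ATP-sensitive channel, had signals between 138 in sample 4 and 158 in sample 6 with a median of 142, a range of 1.15-fold, the smallest of the 19 genes. Kcnj4, a strong rectifier of forebrain neurons, lay between 174 in sample 2 and 209 in sample 4, a range of 1.17-fold. Kcnj9, a subunit of the channels opened by G proteins, had 189, 177, 135, 160.5, 197.5 and 162 in samples 1 to 6, lowest in sample 3 and highest in sample 5. The second Kcnj9 probe set, marked as less specific, read 163 in sample 1 and between 63.5 and 78.5 in the other 5. The sample 1 step was absent from the first probe set, which ranged 1.39-fold against 2.59-fold for the second.

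**Figure D3:**
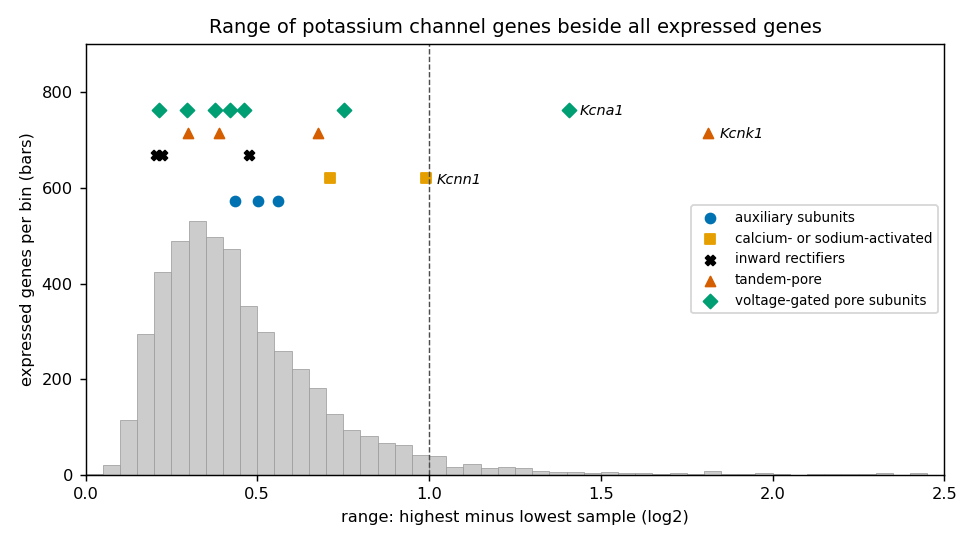
Range of the 19 expressed potassium channel genes (symbols in rows by class, with no vertical scale) above a histogram of the range of all expressed genes (bars, genes per bin), with a dashed line at 1. Kcnk1 (1.81) and Kcna1 (1.41) lie beyond the line, Kcnn1 (0.99) at it, and 12 expressed genes lie beyond the plotted end of 2.5.

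A further 23 genes had a median at or under the array median, where signals are not shown to be above background. Of these, 4 rose above the array median in at least 1 sample. Kcnd3, a transient-current subunit like Kcnd2, had signals of 38.1, 63.9, 25.2, 88.7, 26.1 and 71.0 in samples 1 to 6, above the array median in samples 2, 4 and 6. Its measured range was 3.39-fold, and 1.40-fold once dimmer values were raised to the array median. Kcnh1, a voltage-gated subunit of the ether-a-go-go group, lay between 30.1 in sample 3 and 80.5 in sample 2, and Kcnc1, the fast channel of rapidly firing interneurons, between 26.3 in sample 3 and 66.2 in sample 5. Kcna6 lay between 32.6 in sample 6 and 65.3 in sample 5. Kcnh1 and Kcnc1 were thus lowest in sample 3 like Kcna1, at levels where the difference is not shown to exceed background.

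The other 19 genes were under the array median in every sample. They were Kcna4, Kcna5, Kcna7, Kcnd1 and Kcns1 among voltage-gated subunits, Kcne1, Kcne1l and Kcnmb1 among auxiliary subunits, Kcnn4 and Kcnu1 in the calcium- or sodium-activated class as drawn by symbol, and Kcnk3. The class of inward rectifiers gave 8: Kcnj1, Kcnj2, Kcnj3, Kcnj5, Kcnj6, Kcnj8, Kcnj12 and Kcnj15. Kcnj3 and Kcnj6, known partners of Kcnj9, had medians of 42.7 and 19.7. Kcnj8, a marker of pericytes, lay between 13.6 and 22.9, and Kcne1 was at most 36.0, in sample 4. In all 6 samples Kcna5, Kcnj2, Kcnj5, Kcnj15, Kcnk3 and Kcnmb1 were under the floor, so no range was measured for these 6.

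The 9 genes with a further probe set allow a check within the array. Kcnab2 gave 513 to 628 by its second probe set, again lowest in sample 1, with a range of 0.28 against 0.50. Kcnd2 gave 95.2 to 116 by its unmarked second probe set, with a similar range (0.32 against 0.38) but another order, lowest after scaling in sample 4. For Kcnab1 the second probe set was under the array median throughout and lowest in sample 6, where the first was highest. The second probe sets of Kcna5, Kcnj1, Kcnj6 and Kcnj15 were also under the array median in every sample.

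Seen by sample, the largest counts of channel genes at an extreme were those lowest in sample 3 and those highest in sample 4. Of the 19 expressed genes, 6 were lowest in sample 3 (Kcna1, Kcna2, Kcna3, Kcnj9, Kcnma1 and Kcnq1, 31.6%), against a background of 11.1% of expressed genes. Only Kcnh2 and Kcnk2 were highest there (10.5%, background 31.1%). In sample 4, 6 were highest (Kcna1, Kcna2, Kcnj4, Kcnk7, Kcnma1 and Kcns2, 31.6%, background 12.6%). Some of these places were near ties on the log2 scale. Kcnq1 was at 1.1435 in sample 3 and 1.1452 in sample 4, and Kcna3 at -0.14 and -0.13. Kcna2 was at 0.78 in sample 3 and 0.81 in sample 1, and at 1.204 in sample 4 and 1.201 in sample 5. The part of RNA quality in these counts was not tested. The background depends on scaling: with no scaling 17.7% of expressed genes were lowest and 19.1% highest in sample 3, and the channel counts were still 6 and 2. In sample 5, 5 were lowest (background 20%), in sample 2, 3 were (11.6%), in samples 4 and 6, 2 each (20.7% and 15%), and Kcnab2 alone was in sample 1 (21.6%). A single sample stood apart from the other 5 for Kcnab2 and Kcnk2, 2 of 19 genes, as it did for 5.89% of expressed genes. In samples 1, 2, 5 and 6 the channel genes with their highest value numbered 2, 3, 3 and 3 (background 17.3%, 15.6%, 12.1% and 11.4%). Counts of this size over 19 genes shift with a few genes, and 6 shared arrays underlie them all.

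**Figure D4:**
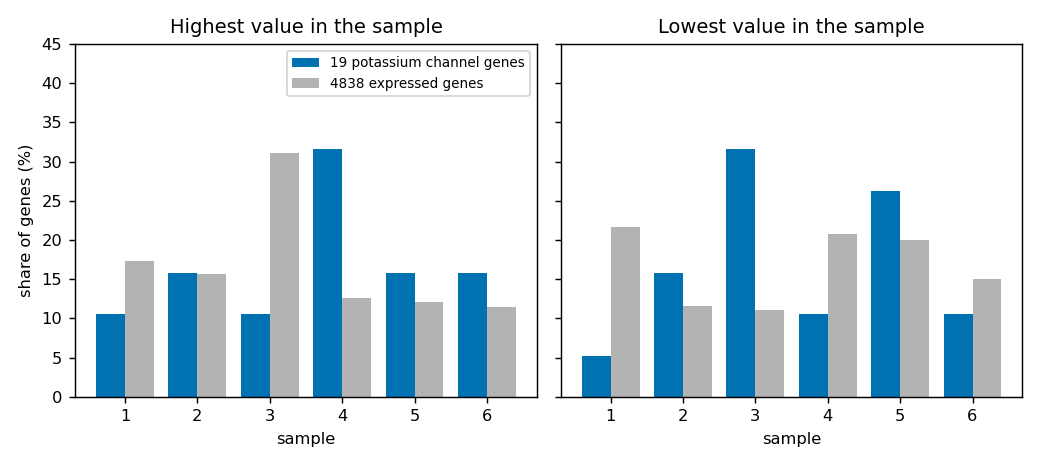
Share of genes (vertical axis, %) whose highest (left) or lowest (right) value after scaling fell in each sample, for the 19 expressed potassium channel genes (blue) and all 4838 expressed genes (grey). In sample 3 the blue bar is 10.5% against 31.1% for highest and 31.6% against 11.1% for lowest.

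The median deviation of the 19 genes from their own medians was small in every sample. It was -0.09 in sample 3 and between -0.01 and 0.04 in the other 5 samples, beside 0.05 in sample 3 and between -0.02 and 0.01 elsewhere for all expressed genes. For the 7 voltage-gated genes alone it was -0.14 in sample 3. For the 13 channel genes with a median over 1 it was 0.01 in sample 3, beside 0.05 for all genes with a median over 1. The negative value there thus did not hold for the brighter channel genes, though theirs lay under that of all such genes.

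Partners of potassium channels were read from a separate list of 25 genes, of which 13 were measured and 11 expressed. Their median range was 0.41, and 2 had a range over 1 (background 4.2%). Dlg4, the scaffold that clusters channels and receptors at synapses, had its lowest signal in sample 3 (255) and its highest in sample 1 (561), a range of 2.10-fold. Dpp6, an auxiliary protein of Kcnd2 channels, spanned 242 (sample 6) to 478 (sample 2), a range of 2.02-fold, and the marked Kcnd2 probe set was likewise lowest in sample 6. Hcn3, a pacemaker channel subunit, was the next widest at 1.55-fold. Of these, Dlg4 shared its lowest sample with Kcna1, whose channels it is known to cluster, but was highest in sample 1, where Kcna1 was next lowest. Among the other expressed partners, Ank3 was also lowest after scaling in sample 3, while Abcc8 and Hcn3 were highest there. In deposited signals Abcc8 was highest in sample 1 (89.8, beside 87.1 in sample 3). A link between the partners and Kcna1 was not tested.

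Of the 8 markers of hippocampal pyramidal and granule neurons, 7 were expressed, against 58.6% of all named genes. The exception was Prox1, a granule cell factor, at 26.9 to 69.6. Of the 5 thalamus and habenula markers measured, 3 passed the same rule, so these counts do not identify the tissue. The array medians of the 6 samples lay between 59.9 and 63.3 in deposited signal, and no 2 arrays held the same values (0 of 15 pairs).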

How the data were processed

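Total RNA from 6 hippocampus samples was read on 1 array each, of 12488 probe sets with 66 controls. The authors deposited signal intensity on a linear scale. The labels and files do not state the summary and scaling methods. Detection calls were not used here. The number of arrays limits the precision. The labels give no group, so all samples stayed unassigned and no test was run. Genes were named from the platform annotation (10833 probe sets with 1 symbol, 396 with several left out). Per array, values were divided by the median of the probe sets that are not controls, set to at least 0.2 of it, and taken to log2 (Python 3.11.15, pandas 2.3.3). Every Kcn gene is named; among expressed ones, those with the 12 largest ranges, and the widest of each class, have all 6 signals. The range script was tested on simulated data. Members, lists and rules were chosen with earlier results of these data known. Scaling, floor, probe set choice, filter and each sample were varied.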

Additional observations from a re-analysis of the deposited data

Results flagged for a closer look

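For 2 of the 19 expressed genes 1 sample stood apart from the other 5, by the gap to its neighbour as a share of the whole range on the log2 scale (Dixon's criterion). For Kcnab2 the low sample 1 (1039, beside 1287 to 1437) gave a share of 0.665. For Kcnk2 the high sample 3 (445, beside 381 to 410.3) gave 0.647, within a range of 1.23-fold. The 6 samples are no labelled group, chance alone gives such a gap in about 1 in 20 genes, and 5.89% of all expressed genes had one.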

How the results depend on the processing

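The count of expressed channel genes (19) and the count lowest in sample 3 (6) moved by no more than 1.5 times. Their median range (0.46) and the median deviation in sample 3 (-0.09) moved by less than the median SD over samples (0.17). This held under every alternative run, but the results for sample 3 could not be recomputed without it. For genes with a median over 1 the count of expressed channel genes became 13 and the count lowest in sample 3 became 4. With no filter on level the latter became 9, and both 4 and 9 lie at the limit of 1.5 times. The median deviation in sample 3 was nonetheless small enough to pass through 0, with 0.01 for channel genes with a median over 1. The count highest in sample 4 (6) became 3 for genes with a median over 1, and of the 143 recomputed counts of genes at an extreme in a sample, other than lowest in sample 3, 25 moved by more than 1.5 times. The count of genes with a range over 1 was 2 and became 10 with no filter on level, where 12.9% of all named genes passed too. It was 3 with quantile normalization (Kcnn1 added), and 3 without sample 1 or sample 5, where Kcnd3 entered. Without sample 3 Kcna1 fell under the threshold (0.63), Kcnd3 entered and the count stayed 2. Kcnk1 kept a range over 1 under every alternative, with 1.55 without sample 6. Since Kcnk1 was high in 2 samples, leaving out 1 sample could not bring it under the threshold. Its single probe set also left the probe set choices without effect. Of 266 ranges of single genes recomputed, many could not move. A filter on level does not change a range, nor does leaving out a sample at neither extreme. In all, 10 moved by more than the SD of the gene. Among them were Kcnj9 (0.85 with the mean of its probe sets) and Kcnq1 (0.55 with unmarked probe sets only). The cause was not tested. No paired analysis was possible because the labels give no groups. Signals under the array median are not shown to be above background.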

Other observations

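The values of Kcnk1 fell into separate levels, with 721 and 865 in samples 1 and 6 and 244, 284, 319 and 247 in samples 2 to 5. It was the only one of the 19 expressed channel genes with a step over 1 on the log2 scale between neighbouring samples (background 0.682% of expressed genes). Among the auxiliary genes under the array median, Kcne1l, an accessory subunit on the X chromosome, read 36.8, 32.2, 39.5, 10.3, 8.72 and 28.0 in samples 1 to 6, low in samples 4 and 5 and not shown to be above background in any.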
